A study of Homo sapiens with 4 samples.

Results

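Amino acid transporter genes were taken as the gene symbols of the solute carrier families SLC1, SLC6, SLC7, SLC36, SLC38 and SLC43, without SLC7A11. The table of counts held 56 such genes among 28058. By what they are known to carry, 33 were grouped as amino acid carriers, 13 as carriers of neurotransmitters, 3 as carriers of osmolytes and creatine, and 7 as other or less defined members. RNA came from cells labelled as SH-SY5Y, an established human neuroblastoma line, grown in DMEM with fetal calf serum, penicillin and streptomycin. There were 2 control samples without shock wave treatment (SWT) and 2 SWT samples. Per the sample protocols, SWT was 300 impulses at 0.08 mJ/mm2 and 3 Hz, given to flasks in a water bath at 37 °C and 7 cm from the applicator, and RNA was isolated at 6 h. The design text of the series speaks of exosomes instead, and this difference in the descriptions remains unsettled. The labels do not say whether replicates were separate cultures. All p-values therefore refer to the spread among these 4 samples, and that spread may be technical.

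Cells take up amino acids through families of membrane carriers that differ in substrate, in the ion they couple to and in the membrane they sit in. Some carriers, such as those of glutamine and leucine, feed protein synthesis and growth signalling in most dividing cells. Carriers of glutamate, GABA, glycine and monoamines are instead best known for clearing transmitters from the synapse, in particular neurons and glia. Several carriers in the lysosomal membrane also report amino acid supply to the kinase complex mTORC1.

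Total counts were between 9888263 and 11686808 per library, and a count of 0 left room for a level of at most 0.257 CPM in the deepest library and 0.303 CPM in the shallowest (CPM are counts scaled to a common library total). These limits cover counting error only. Of 14 markers of the noradrenergic neuroblastoma state, 7 had 0 counts in all libraries, among them TH, DBH, PHOX2A and MYCN. The 2 that reached 10 CPM in every library were HAND2, at 48.9 to 54.2 CPM, and GATA2, at 13.2 to 19.0 CPM. Of 10 mesenchymal markers, 9 reached 10 CPM in every library, and SNAI2, at 2.58 to 3.52 CPM, did not. VIM, COL1A1, COL3A1 and FN1 had means of 3251, 3022, 2914 and 1812 CPM. The upper quartile of all genes tested was 80.7 CPM. In bulk RNA, fewer cells of a type and less RNA per cell cannot be told apart. Control replicate 2 stood apart: 12 heart muscle genes summed to 322 CPM there, against 35.2 CPM in SWT replicate 1, 7.83 CPM in control replicate 1 and 10.5 CPM in SWT replicate 2. Summed markers ranged over libraries from 2.58 to 5.05 CPM for 8 glial genes (GFAP at most 0.404 CPM), from 2.23 to 6.26 CPM for 6 endothelial genes and from 47.6 to 53.6 CPM for 6 leukocyte genes. Most of the last sum was CD68, and the T cell gene CD3E had 0 counts.

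The transporter genes split into a set with many reads and a set with almost none, and so did the genes of the whole table. Of 56 members, 19 reached 10 CPM in every library. Another 32 stayed under 1 CPM throughout, 17 of them with 0 counts. Of all 28058 genes counted, 9075 reached 10 CPM in every library. Another 15394 stayed under 1 CPM throughout, 10321 of them with 0 counts. The filter on low counts kept 24 members for testing, 16 amino acid carriers, 3 neurotransmitter carriers, 2 carriers of osmolytes and creatine and 3 others. The 32 members under 1 CPM are the same 32 that the filter left out. Between the groups no member passed the test: edgeR's quasi-likelihood test called 0 of 24 members after Benjamini-Hochberg adjustment, and 0 of 12399 genes tested (a background of 0%). At an unadjusted p under 0.05 there were 5 members, where the background was 5.77% of all genes tested. Of these, 4 were higher in SWT (background 2.81%) and 1 was lower (background 2.96%).

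**Figure D1:**
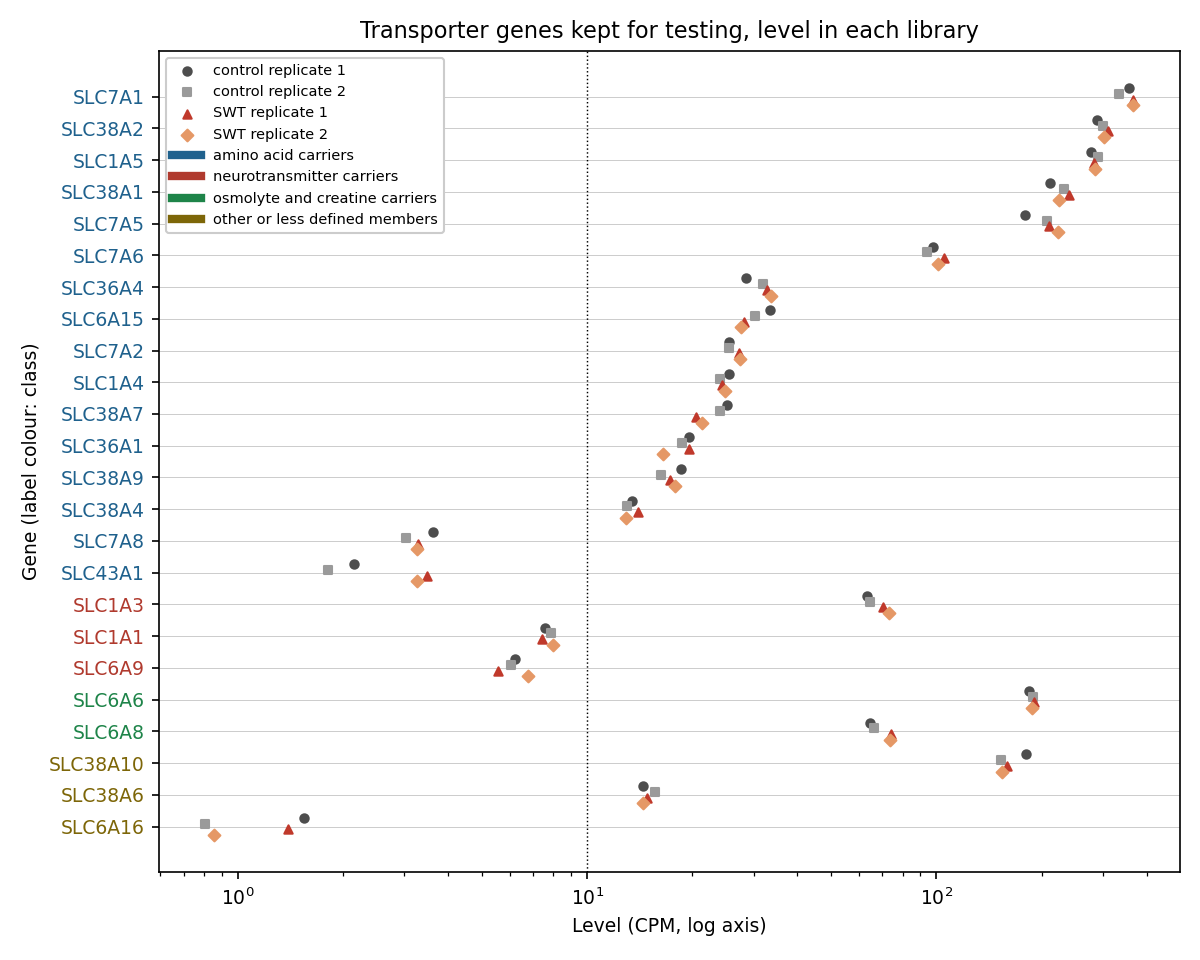
Level of the 24 tested transporter genes in each of the 4 libraries, in CPM on a log axis, with 1 point per library and label colours for the class. The dotted line marks 10 CPM. The amino acid carriers SLC7A1, SLC38A2, SLC1A5, SLC38A1 and SLC7A5 hold the highest levels of their class, and SLC1A3 is the neurotransmitter carrier above the line.

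The promoters of a few members show how unlike their start sites are. RefSeq windows on build GRCh38.p14, of 250 bases before and 50 after a gene's start, matched 43 members, and where a gene had several windows the one closest to the start of its GENCODE model was used. The 250 bases before the start are printed for SLC7A1, the member with the highest CPM, for SLC36A1, a member above 10 CPM with few CpG sites, and for SLC1A7, a glutamate carrier gene with 0 counts. Capitals mark CG pairs, the sites of DNA methylation. They lie at chr13:29595689-29595938 (minus strand), chr5:151436796-151437045 (plus strand) and chr1:53142639-53142888 (minus strand).
SLC7A1: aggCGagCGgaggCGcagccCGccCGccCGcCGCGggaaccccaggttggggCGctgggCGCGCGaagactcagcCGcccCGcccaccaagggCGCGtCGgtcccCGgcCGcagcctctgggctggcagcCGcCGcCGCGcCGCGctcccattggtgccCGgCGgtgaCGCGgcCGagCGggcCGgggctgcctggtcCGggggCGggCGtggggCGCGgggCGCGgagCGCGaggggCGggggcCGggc
SLC36A1: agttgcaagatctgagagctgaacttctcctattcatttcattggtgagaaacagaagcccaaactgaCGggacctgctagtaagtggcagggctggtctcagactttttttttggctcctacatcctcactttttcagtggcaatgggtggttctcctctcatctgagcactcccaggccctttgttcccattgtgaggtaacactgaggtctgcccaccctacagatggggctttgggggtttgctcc
SLC1A7: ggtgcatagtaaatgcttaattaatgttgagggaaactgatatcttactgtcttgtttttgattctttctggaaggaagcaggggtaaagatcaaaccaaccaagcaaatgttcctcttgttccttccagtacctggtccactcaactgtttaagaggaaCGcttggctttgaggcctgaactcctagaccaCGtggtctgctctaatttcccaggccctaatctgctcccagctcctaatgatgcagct

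In these stretches SLC7A1 has 43 CG pairs, SLC36A1 has 1 and SLC1A7 has 2. Over the whole windows of 300 bases, the 16 matched members at 10 CPM or more in every library had a median of 27 CpG sites (2 to 49), and the 11 matched members with 0 counts a median of 11 (2 to 35). Counted genes in general had a median of 27 at 10 CPM or more in every library (7342 genes) and of 5 at 0 counts (4718 genes). The ranges of the member groups overlap: SLC6A20, a proline carrier gene with 35 sites, had 0 counts, and SLC6A11, a GABA carrier gene with 39 sites, had 1 count in all. By class, 28 amino acid carriers had a median of 18.5 sites and 9 neurotransmitter carriers a median of 16. The counts do not tell which start a gene used, and methylation was not measured. SLC1A2, SLC38A3, SLC43A3, SLC6A12, SLC6A15, SLC6A2, SLC6A3, SLC6A6, SLC7A13, SLC7A2, SLC7A3 and SLC7A4 were among those not matched.

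**Figure D2:**
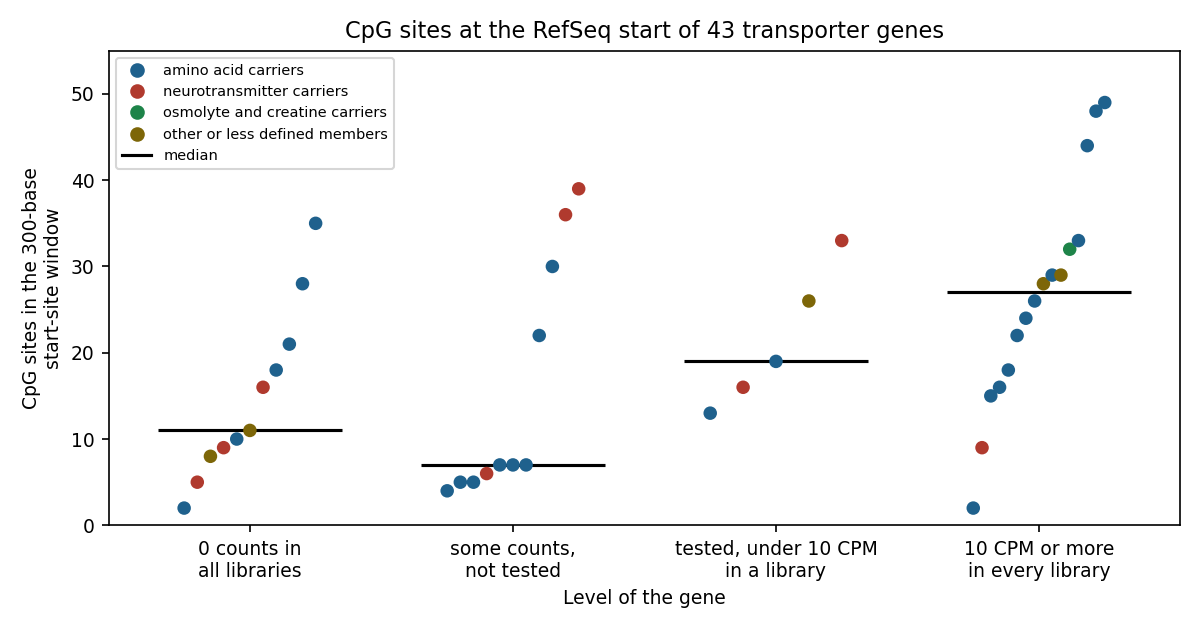
CpG sites (vertical axis) in the RefSeq start-site window of 43 transporter genes, grouped by level in the libraries (horizontal axis), with 1 point per gene, colours for the class and a line at the median. The median is 27 at 10 CPM or more in every library and 11 at 0 counts, and the points of the groups overlap.

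The sodium-dependent glutamine and small neutral amino acid carriers gave some of the highest levels, with log2 fold changes from -0.01 to 0.07. SLC1A5, the ASCT2 exchanger that brings glutamine into dividing cells (chromosome 19, 46774883 to 46788594), stood at 277 and 290 CPM in control and 282 and 284 CPM in SWT. Both SWT values lie between the control values, and the log2 fold change was -0.0041 (SE 0.055, edgeR adjusted p = 0.997). Its relative SLC1A4, which carries alanine, serine and cysteine, stood at 25.5 and 24.0 CPM in control and 24.3 and 24.9 CPM in SWT, so that SLC1A5 held 10.9 to 12.1 times the CPM of SLC1A4 in each library. SLC38A2, the SNAT2 carrier known to be induced when amino acids run short, stood at 288 and 301 CPM in control and 310 and 302 CPM in SWT. Its SWT values were the higher ones by a narrow margin, with a log2 fold change of 0.06 (95% interval -0.06 to 0.17). SLC38A1, the related SNAT1 carrier, stood at 212 and 232 CPM in control and 240 and 224 CPM in SWT, and its groups overlapped. SLC38A4, a carrier of the same family, stood at 13.4 and 13.0 CPM in control and 14.0 and 13.0 CPM in SWT, also with overlap. SLC38A1 and SLC38A2 are neighbours on chromosome 12, within 190 kb, and SLC38A2 held 1.29 to 1.36 times the CPM of SLC38A1 in every library. Per kb of exon the gap was wider, with SLC38A2 at 45.5 CPM and SLC38A1 at 22.7 CPM.

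Among the carriers of large neutral amino acids SLC43A1 and SLC7A5 stood higher in both SWT libraries than in both controls, and neither passed the test. SLC7A5, the LAT1 exchanger of leucine and other large amino acids (chromosome 16, 87830023 to 87869488), stood at 179 and 208 CPM in control and 210 and 222 CPM in SWT. Both SWT libraries lie above both controls, but SWT replicate 1 only just exceeds control replicate 2. The log2 fold change was 0.16 (SE 0.07, edgeR adjusted p = 0.838). SLC3A2, which encodes the heavy chain that takes LAT1 to the cell surface, stood at 155 and 168 CPM in control and 175 and 179 CPM in SWT. Its groups did not overlap, and the fitted difference was 0.13 on the log2 scale (SE 0.06, edgeR adjusted p = 0.843). Both genes were lowest in control replicate 1, and SLC3A2 held 0.807 to 0.867 times the CPM of SLC7A5 in each library. That ratio is not corrected for length. Per kb of exon, SLC3A2 stood at 32.7 CPM and SLC7A5 at 43.2 CPM. With the longest transcript as the length the order turned, at 76.3 and 45.1 CPM per kb. The other heavy chain gene, SLC3A1, which serves cystine uptake in kidney, had 1 count in all 4 libraries.

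The size of the SLC7A5 difference depended on the control libraries. Without control replicate 1 its log2 fold change was 0.06 and it did not pass, in a fit with a background of 0.978%, and without control replicate 2, the library with heart muscle transcripts, it was 0.27 and the gene passed (edgeR adjusted p = 0.00154). That fit called 203 of 12697 genes, a background of 1.6%, and took its spread within the control group from the SWT libraries. SLC7A5 was the 1 member called in any of the 4 fits that left a library out. Reads of SLC7A5 can be shared with its partial copy SLC7A5P2, which had 4 to 9 counts per library.

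SLC43A1, the LAT3 carrier, which moves the same amino acids without a heavy chain (chromosome 11, 57484534 to 57515786), gave the largest log2 fold change of the tested members. It stood at 25 and 18 counts in control and 35 and 38 counts in SWT, which are 2.15 and 1.82 CPM against 3.47 and 3.26 CPM. The groups did not overlap, and the log2 fold change was 0.75 (SE 0.27, 95% interval 0.18 to 1.31, edgeR adjusted p = 0.838). With so few counts the interval is wide, and the gene held under 1 CPM per kb of exon. SLC7A8, the LAT2 exchanger, was low as well, at 3.62 and 3.03 CPM in control and 3.27 and 3.26 CPM in SWT, and SLC7A5 held 49.6 to 68.6 times its CPM. SLC7A6, an exchanger of cationic for neutral amino acids that also needs SLC3A2, stood at 97.9 and 93.8 CPM in control and 105 and 101 CPM in SWT, without overlap, with a log2 fold change of 0.10 (95% interval -0.03 to 0.24). SLC7A6 shares exon sequence with SLC7A6OS on the opposite strand, which had 115 to 198 counts per library, and the strand setting of the counting is not given. SLC7A7, its relative of kidney and gut, had 3 to 9 counts per library.

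Uptake of arginine and lysine was represented by a pair of genes. SLC7A1, the CAT1 carrier (chromosome 13, 29509410 to 29595688), had the highest CPM of all members, 355 and 333 CPM in control and 364 and 366 CPM in SWT. The SWT values lie above the controls, with a difference of 0.09 in log2 units (SE 0.055, edgeR adjusted p = 0.886). SLC7A2, the CAT2 carrier, stood at 25.4 and 25.6 CPM in control and 27.3 and 27.4 CPM in SWT, a log2 fold change of 0.10 (95% interval -0.10 to 0.31). SLC7A1 held 13.0 to 14.0 times the CPM of SLC7A2 in each library. SLC7A3, the CAT3 carrier of brain, had 0 counts.

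Lysosomal and proton-coupled carriers lay at moderate levels, and SLC38A7 was the 1 member lower in SWT at an unadjusted p under 0.05. SLC38A7, which exports glutamine from the lysosome (chromosome 16, 58665109 to 58685104), stood at 25.1 and 23.9 CPM in control and 20.5 and 21.4 CPM in SWT. Both SWT values lie below both controls. The fitted difference was -0.23 on the log2 scale (SE 0.10, edgeR adjusted p = 0.843), and it ranged from -0.26 to -0.19 when each library was left out in turn. SLC38A9, the lysosomal arginine sensor of mTORC1, stood at 18.5 and 16.3 CPM in control and 17.3 and 17.8 CPM in SWT, and SLC36A1, the proton-coupled carrier PAT1, at 19.6 and 18.7 CPM in control and 19.5 and 16.5 CPM in SWT. The groups overlapped for both genes. SLC36A4, the carrier PAT4, stood at 28.5 and 31.8 CPM in control and 32.6 and 33.7 CPM in SWT, with a log2 fold change of 0.14 (95% interval -0.06 to 0.34). SLC36A1 lies in a group of 3 genes within 216 kb on chromosome 5. Its neighbours were at or near 0 counts: SLC36A2 had 1 count in all libraries and SLC36A3 had 0.

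Of the SLC6 genes that carry amino acids, 1 of 7 was tested. SLC6A15, a carrier of branched-chain amino acids and proline best known from brain (chromosome 12), stood at 33.5 and 30.2 CPM in control and 28.1 and 27.6 CPM in SWT. The SWT libraries were the lower ones, by -0.20 on the log2 scale (SE 0.09, edgeR adjusted p = 0.843), and by -0.12 without control replicate 1. The carriers of kidney and gut epithelium SLC6A18, SLC6A19 and SLC6A20 and the synaptic vesicle carrier SLC6A17 had 0 counts, and SLC6A7 and SLC6A14 had 1 count each. SLC7A10, SLC7A13, SLC7A9, SLC38A3, SLC38A5, SLC38A8 and SLC43A2 had between 0 and 3 counts in any library.

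Among the neurotransmitter carriers, 1 gene of 13 reached 10 CPM. SLC1A3, the glutamate carrier EAAT1 that is best known from astrocytes (chromosome 5, 36606355 to 36688334), stood at 63.2 and 64.7 CPM in control and 70.3 and 72.9 CPM in SWT. The groups did not overlap, and the log2 fold change was 0.17 (SE 0.07, 95% interval 0.02 to 0.31, edgeR adjusted p = 0.838), with 0.14 to 0.19 when each library was left out in turn. SLC1A3 made up 81.2% to 83.6% of the CPM of the 13 genes in every library. The astrocyte marker genes GFAP, AQP4 and ALDH1L1 had no more than 4 counts in any library, and the glial list summed to 3.44 and 5.05 CPM in control and 2.58 and 3.17 CPM in SWT. SLC1A1, the neuronal glutamate and cysteine carrier EAAT3, stood at 7.58 and 7.88 CPM in control and 7.44 and 7.98 CPM in SWT. SLC6A9, the glycine carrier GlyT1, stood at 6.20 and 6.06 CPM in control and 5.55 and 6.78 CPM in SWT. Groups overlapped for SLC1A1 and SLC6A9, and the 95% intervals of their log2 fold changes ran from -0.35 to 0.35 and from -0.37 to 0.40. SLC6A9 shares exon sequence with CCDC24 on the opposite strand, which had 39 to 63 counts per library.

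The other transmitter carriers were at or near 0. SLC6A2, the noradrenaline carrier that marks sympathetic neurons, and SLC6A3, the dopamine carrier, had 0 counts in all libraries, as had SLC6A5, the glycine carrier of inhibitory neurons, and the glutamate carriers SLC1A6 and SLC1A7. SLC6A4, the serotonin carrier, had 2 counts in all, and SLC1A2, the main glutamate carrier of astrocytes, and SLC6A11 had 1 each. SLC6A13, the GABA carrier GAT2, had 4 to 9 counts per library. The vesicular carriers that load transmitters into synaptic vesicles gave the same picture: of 7 genes, 5 had 0 counts, SLC17A7 had 1 to 4 counts per library and SLC17A8 had 1 count in all. None of the 7 was tested.

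The taurine and creatine carriers were both well expressed. SLC6A6, the taurine carrier, stood at 184 and 189 CPM in control and 190 and 188 CPM in SWT, with overlap and a log2 fold change of 0.02 (95% interval -0.10 to 0.14). SLC6A8, the creatine carrier on the X chromosome (153688099 to 153696593), stood at 64.6 and 66.3 CPM in control and 74.0 and 73.7 CPM in SWT. Its groups did not overlap, and the log2 fold change was 0.17 (SE 0.07, edgeR adjusted p = 0.838), with 0.16 to 0.19 when each library was left out in turn. Its pseudogene SLC6A10P, which is no member, had 6 and 6 counts in control and 14 and 15 in SWT, which gave 1.24 on the log2 scale (SE 0.47, edgeR adjusted p = 0.838). Reads can be shared between this pair, so both values are uncertain. SLC6A12, the betaine and GABA carrier, had 2 to 7 counts per library.

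Of the less defined members, SLC38A10 stood at 181 and 153 CPM in control and 159 and 154 CPM in SWT. Control replicate 1 was the highest of the 4 libraries and the rest lay between 153 and 159 CPM, and its log2 fold change of -0.09 was 0.04 without control replicate 1. SLC38A6 stood at 14.5 and 15.7 CPM in control and 14.9 and 14.5 CPM in SWT, and shares exon sequence with TRMT5 on the opposite strand (386 to 430 counts per library). SLC6A16 had 8 to 18 counts per library and a 95% interval from -1.07 to 0.82. SLC43A3, which carries purine bases, had 2 counts in all, and SLC7A4, SLC7A14 and SLC38A11 had 0.

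Amino acid carriers had higher summed levels than neurotransmitter carriers, and more of them were measurable. At 10 CPM or more in every library there were 14 of 33 amino acid carriers and 1 of 13 neurotransmitter carriers, and 8 of 33 and 6 of 13 had 0 counts throughout. Per kb of exon, the scale on which genes can be compared, the classes summed to 282 ± 7.41 and 14.1 ± 0.806 CPM per kb (SD, n = 4), a ratio of 20.0, or 16.2 when the longest transcript was used as the length. These sums run over 33 and 13 genes, so class size is part of the ratio. Each SD in this paragraph is over all 4 libraries, control and SWT together. SLC1A5 was highest at 85.0 ± 1.60 CPM per kb (SD, n = 4). SLC7A1, SLC38A2 and SLC7A5 followed at 46.1 ± 1.98, 45.5 ± 1.41 and 43.2 ± 3.83 CPM per kb (SD, n = 4). On this length their ranges of mean ± SD overlap. With the longest transcript as the length SLC38A2 came before SLC7A1 and SLC7A5, at 61.4, 48.2 and 45.1 CPM per kb, so their order depends on the length used. The top neurotransmitter carrier, SLC1A3, ranked 10 among all members at 10.8 ± 0.735 CPM per kb (SD, n = 4), and 9 by the longest transcript.

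The difference between the classes in their response to SWT was not tested, since the genes of a class are not replicates. The median log2 fold change was 0.04 over the 16 tested amino acid carriers, of which 10 lay above 0, and 0.01 over the 3 tested neurotransmitter carriers, of which 2 lay above 0. Over all genes tested the median was -7.76e-04, and 49.7% lay above 0. Leaving out 1 library moved the amino acid carrier median between 0.0245 (without SWT replicate 1) and 0.0781 (without SWT replicate 2). It moved the neurotransmitter carrier median between -0.0531 (without SWT replicate 2) and 0.143 (without SWT replicate 1), which turned its sign. Between replicates 2 and 1, the median difference of the amino acid carriers was -0.0646 in control and 0.0011 in SWT, and each SWT library against each control gave 0.0395 to 0.0650. Summed CPM of the amino acid carriers was 1604 and 1647 in control and 1702 and 1689 in SWT, and of the neurotransmitter carriers 77.8 and 79.1 in control and 84.1 and 88.6 in SWT. The sums do not overlap in either class. They are carried by the few highest genes, with 5 genes giving 81.7% to 82.8% of the amino acid carrier sum. With 2 samples against 2, an exact two-sided permutation test cannot go below p = 0.333. Of the 24 tested members, 9 had both SWT libraries above both controls and 2 had both below, where 17.3% and 18% of all genes tested did so. The 95% interval lay within 0.5 log2 units of 0 for 21 of the 24, against 77.6% of all genes tested.

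**Figure D3:**
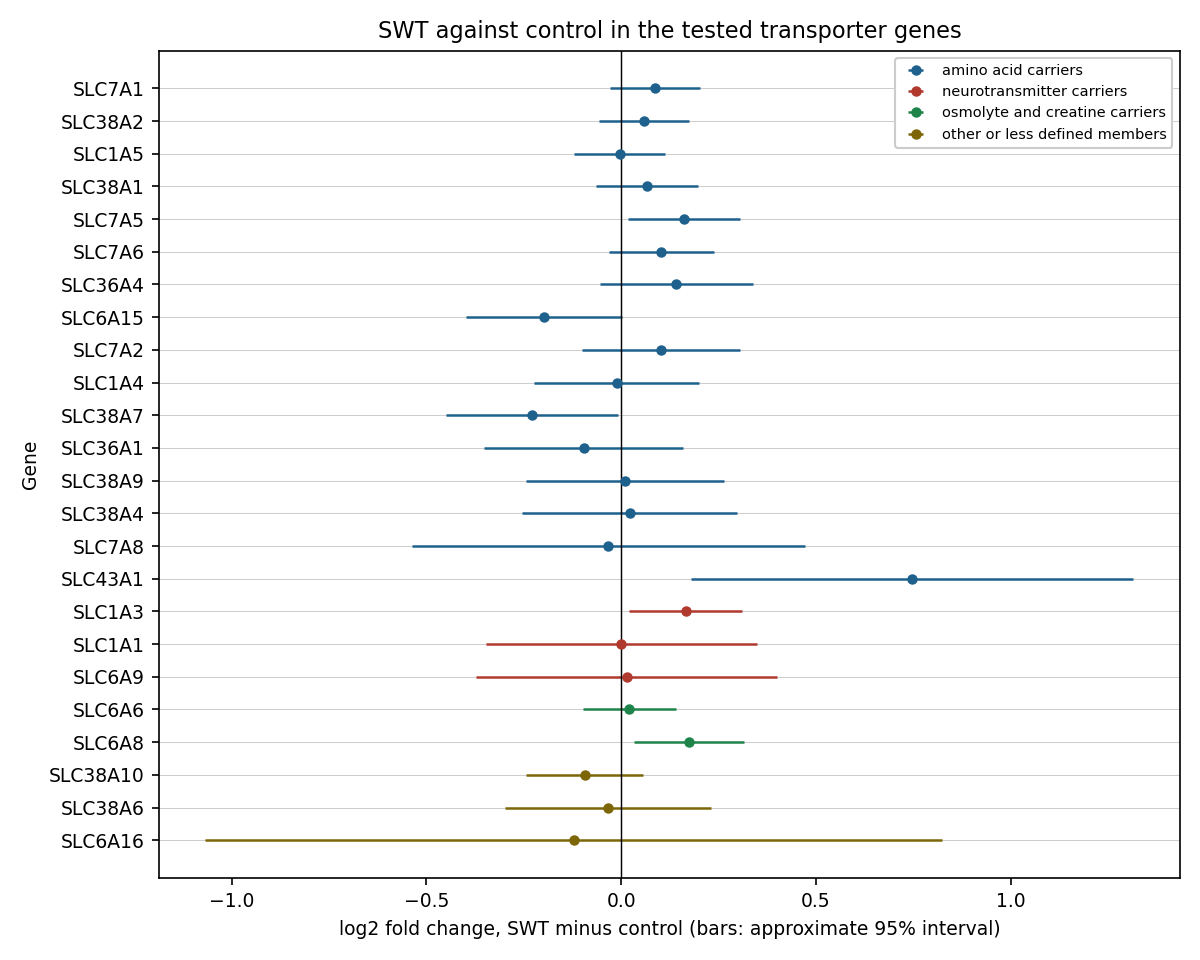
Log2 fold change of SWT minus control for the 24 tested transporter genes, with approximate 95% intervals from the edgeR fit and colours for the class. Intervals of SLC43A1, SLC6A8, SLC1A3, SLC7A5 and SLC38A7 leave out 0, and none of the 24 passed after adjustment over all genes.

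The 5 members at an unadjusted p under 0.05 were SLC43A1, SLC6A8, SLC1A3 and SLC7A5, higher in SWT, and SLC38A7, lower. DESeq2 called 0 members (0 at an unadjusted p under 0.05, a background of 0.654%), and limma, run on the authors' deposited log2 table, called 0 (4 unadjusted, a background of 4.94%). Libraries also differed along GC content. Across 6293 of the 12399 genes tested, the log2 fold change had a Spearman rho of -0.410 with GC content. The differences between replicates 2 and 1 gave -0.483 in control and 0.382 in SWT. Over all 24 tested members, at low and high levels, the rho of the log2 fold change with GC content was -0.0043. That is a far smaller set than the 6293 genes, so it does not show that the members escaped the trend. The sets are also unlike: the 6293 are only a part of the genes with known GC content (97.4% of those tested), and the 24 are all tested members. These correlations are across genes of the same libraries and carry no p-value. After removal of the trends with GC content and transcript length from every library, the log2 fold changes were 0.79 for SLC43A1, 0.22 for SLC6A8, 0.14 for SLC1A3, 0.20 for SLC7A5 and -0.19 for SLC38A7. All 5 kept their direction in that fit. It used the same 4 libraries from which the 5 were picked, so this is no separate support.

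**Figure D4:**
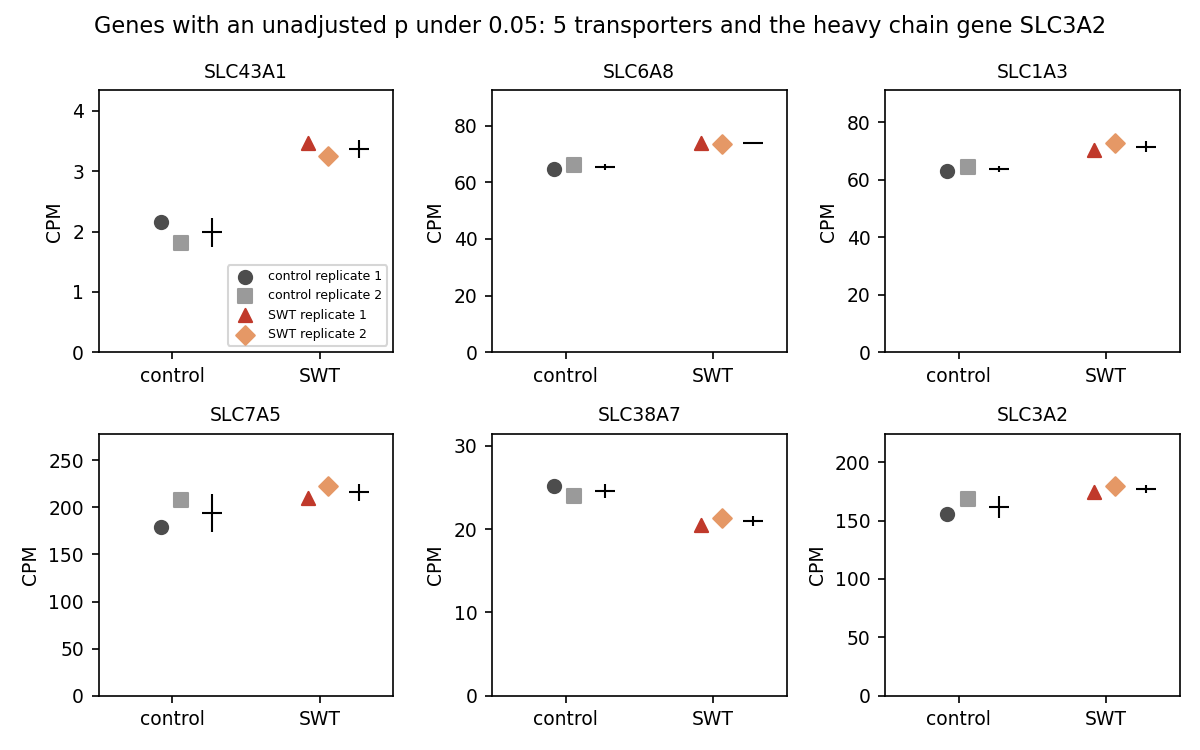
CPM in each library (points) with the mean and SD of each group of 2 (cross with bar) for the 5 transporter genes at an unadjusted p under 0.05 and for SLC3A2, with axes that start at 0. The groups do not overlap in any panel, and the controls of SLC7A5 and SLC3A2 are spread more widely than their SWT libraries.

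Genes that sense amino acids or respond to their shortage did not pass the test either. Of 38 genes of amino acid sensing by mTORC1, 36 were tested and 0 passed, with 13 above 0, 23 below and a median log2 fold change of -0.02. The extremes were DEPDC5, of the GATOR1 complex that restrains mTORC1, at 0.24 (19.5 and 15.2 CPM in control, 20.1 and 21.2 CPM in SWT), and ITFG2, of the KICSTOR complex that anchors GATOR1 at the lysosome, at -0.23 (13.8 and 12.8 CPM in control, 11.7 and 11.1 CPM in SWT). Of 27 genes of the ATF4 pathway and amino acid synthesis, 24 were tested and 0 passed, with 10 above 0, 14 below and a median of -0.0090. The extremes were CHAC1, a glutathione-degrading enzyme induced through ATF4, at 0.57 (3.27 and 3.94 CPM in control, 4.46 and 6.09 CPM in SWT) and DDIT4, an inhibitor of mTORC1, at -0.23 (346 and 282 CPM in control, 248 and 287 CPM in SWT). ATF4 itself, the factor that induces several of these carriers when amino acids run short, stood at 145 and 151 CPM in control and 145 and 148 CPM in SWT.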

How the data were processed

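RNA of 4 samples was sequenced after a stranded mRNA library kit, per the labels' protocols. The authors deposited raw counts per gene symbol and a second table of log2 values for 17151 genes (39 members). For genes of higher level, deviations of these values from each gene's mean followed those of log2 CPM with a slope of 0.375. Trimmomatic 0.36, FastQC 0.11.5, STAR 2.5.3a, HTSeq, DESeq2 and hg38 appear in the submitters' processing notes, which assign them no role. For the annotation and the strand setting, nothing is given in the sources used here.

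The test of counts was that of edgeR 4.0.16 under R 4.3.3 (TMM, filterByExpr, quasi-likelihood F-test, Benjamini-Hochberg over 12399 genes, threshold 0.05). Standard errors were derived from each gene's fold change and F statistic, so intervals are approximate. CPM use TMM-scaled totals. Lengths, GC content and positions are those of GENCODE 29 on GRCh38 (all 56 members matched), with length and GC content known for 97.4% of genes tested. Levels per kb divide CPM by the union of exons. Ratios of CPM between genes are not corrected for length. Members and lists were chosen with earlier results of these data known. Named genes are the 20 members with a mean of at least 10 CPM or an unadjusted p under 0.05, both heavy chains, and the extremes of the other lists; further genes were named after their values were seen. Alternatives included DESeq2 1.42.0, limma 3.58.1, scaling, filters, a replicate block and leaving out each library. The fit was tested on simulated data. Python 3.11.15 with matplotlib 3.10.9 drew the plots. Some genes that enter the counts are not reported here by name.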

Additional observations from a re-analysis of the deposited data

How the results depend on the processing

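Transporter genes called stayed at 0 in every setting run but one: across the fits that left a library out, the number was 0 to 1, the 1 being SLC7A5 without control replicate 2. In such fits the lone library of a group is assumed to vary like the other group. With the replicate block, 1 gene of 12399 was called and 0 transporters (3 at an unadjusted p under 0.05). Over all genes the count was 63 without a filter, 97 with the crossed pairing of replicate numbers (55 higher, 42 lower, 0 transporters), chosen after seeing the data, 1 with the length and GC trend removed, and 17 to 203 with a library left out. Deviations of same-numbered samples correlated at -0.283 across 6324 genes of higher level. Same-numbered samples thus gave no sign of pairing, and samples of opposite number tended to deviate together. The reason for this was not tested. The median of the amino acid carriers was 0.0235 without a filter, 0.012 on the deposited log2 values, 0.0195 with the trend removed, and 0.0245 (without SWT replicate 1) to 0.0781 (without SWT replicate 2) with a library left out. That of the neurotransmitter carriers was -0.0531 at the lowest, with SWT replicate 2 left out, and 0.143 at the highest, with SWT replicate 1 left out. The deposited values are on a compressed scale (slope 0.375 for genes of higher level). The 0.012 of the amino acid carriers is therefore not comparable in size with the other medians. At 1 CPM in place of 10 CPM in every library, 3 neurotransmitter carriers counted. With the trend removed, SLC1A5 stood at 0.0434, SLC38A4 at -0.0107 and SLC38A9 at -0.0239, signs opposite to the main values. Leaving out each library, 13 of 20 named members kept their sign in all 4 fits, and 7 did not: SLC1A4 (-0.0495 to 0.0336), SLC1A5 (-0.0361 to 0.0299), SLC36A1 (-0.22 to 0.0279), SLC38A10 (-0.206 to 0.0363), SLC38A4 (-0.0320 to 0.0798), SLC38A6 (-0.0930 to 0.0221) and SLC38A9 (-0.0743 to 0.111). The cause was not tested. A gene with both SWT libraries above both controls, or both below, is bound to keep its sign in these fits, apart from small shifts in scaling. That held for 9 and 2 of the tested members, SLC1A3, SLC6A8 and SLC38A7 among them. Their kept signs therefore add no support. Depth limits the 32 members under 1 CPM in every library, which the filter left out of the main test. Without the filter, with DESeq2 and with limma 39 members were tested and 0 were called.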
